A study of Mus musculus with 4 samples.

Results

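The Tal1 sites described here are those sites of the Tal1 list on chromosomes 1 to 19 whose centre had no Ldb1 or Gata1 site centre within 1000 bp. There were 1215 of them among 5315 autosomal Tal1 sites, or 22.9%, and among 16016 autosomal sites of the Ldb1, Tal1 and Gata1 lists together. They are called far sites below, and the other 4100 Tal1 sites, which had a site of at least 1 of the other 2 proteins within 1000 bp, are called near sites.

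Chromatin of total mouse bone marrow was precipitated and sequenced (ChIP-seq), giving 1 library each for Ldb1, Scl/Tal1 (Tal1 here), Gata1 and control IgG. The cells were freshly isolated marrow fixed with formaldehyde, and the labels give no strain, age or treatment for any library and no sorting of cells, so each value averages over all marrow cell types. The study's stated question was the part that Ldb1 complexes play in switching on erythroid genes. No difference between antibodies had a replicate check, since each antibody had 1 library, and all intervals are 95% intervals that cover counting error only.

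Tal1 is a basic helix-loop-helix transcription factor that binds E-box sequences with a partner of the E-protein family and is needed for blood cell formation. Ldb1 does not bind DNA itself; it is an adaptor that joins LIM-domain proteins, such as Lmo2, to Tal1 and Gata1 and can bring distant complexes together. Gata1 is a zinc finger factor of red cells, megakaryocytes, mast cells and eosinophils that binds GATA motifs. In erythroid cells the 3 proteins are known to meet in 1 complex, often where an E-box and a GATA motif lie close together. IgG binds no chosen chromatin protein, so its tags show how much DNA is recovered at a place without a specific antibody.

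Absence from a list is a statement about the site caller's threshold, and the far sites were chosen by that absence. The caller required 9 tags for an Ldb1 site, 8 for a Tal1 site and 11 for a Gata1 site. The same libraries that chose the sites also gave every tag level below, so levels are described and no difference between site classes was tested. Libraries held 5767555 tags for Tal1, 6368803 for Ldb1, 7873298 for Gata1 and 7437674 for IgG. A level is the number of tags with their centre within 250 bp of the site centre per 1000000 tags of the library (RPM), and 3 tags at 1 site correspond to between 0.381 and 0.520 RPM. A flank is the sequence from 2 to 5 kb on both sides of the centre, scaled to the 500 bp of the window.

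The far sites were the weak end of the Tal1 list. The authors' caller gave them a median of 9 tags, with a range of 8 to 56, and 439 of the 1215 (36.1%) stood at the caller's minimum of 8. Near sites had a median of 15 tags and a range of 8 to 187, and 11.3% of them stood at 8. The median fold over background in the authors' list was 12.6 for far and 21.8 for near sites. The share of Tal1 sites that were far fell through the list, from 48.6% of sites with 8 tags to 36.2% with 9 to 10, 25.6% with 11 to 14, 12.03% with 15 to 19 and 2.34% with 20 or more. In all, 188 far sites reached the list's median of 13 tags.

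The Tal1 signal that defined the far sites was a narrow peak. The Tal1 library had a median of 20 tags per far site (quartiles 16 and 25, range 8 to 133) and a mean of 3.89 RPM (3.85 to 3.94). This was 7.56-fold the IgG level (7.32 to 7.80) and 8.98-fold the Tal1 level in the flanks (8.83 to 9.12). At near sites the mean was 11.2 RPM, 30.02-fold IgG and 23.1-fold the flanks. These Tal1 values follow from how the sites were called and describe them only.

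Ldb1, though not called within 1000 bp, was above its flanks over the far sites as a group. Its library had a median of 9 tags per far site (quartiles 6 and 12, range 0 to 186) and a mean of 1.51 RPM (1.48 to 1.54). That was 2.93-fold IgG (2.84 to 3.04) and 3.44-fold the Ldb1 level in the flanks (3.37 to 3.52). The level was far below that of near sites, where Ldb1 had a median of 35 tags, a mean of 8.29 RPM, 22.2-fold IgG and 17.6-fold the flanks. Ldb1 was above IgG, in RPM, at 1087 of the 1215 far sites (89.5%), and 14 far sites held no Ldb1 tag.

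Gata1 was at a like level. Its library had a median of 11 tags per far site (quartiles 7 and 16, range 0 to 100) and a mean of 1.60 RPM (1.57 to 1.62). This was 3.10-fold IgG (3.0 to 3.21) and 4.12-fold the flanks (4.04 to 4.19), against 11.98-fold and 10.4-fold at near sites. Gata1 exceeded IgG at 1135 far sites (93.4%), and 13 held no Gata1 tag. Only 1 far site had neither an Ldb1 nor a Gata1 tag in its window.

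The IgG library itself was higher at the far sites than in their surroundings. It had a median of 3 tags per far site (quartiles 1 and 5, range 0 to 93) and a mean of 0.515 RPM (0.501 to 0.530), 1.94-fold its flanks (1.88 to 2.0). At near sites the mean was 0.374 RPM and 1.51-fold the flanks. Of the far sites 403 held 5 or more IgG tags, or 33.2% (30.5 to 35.9), where 22.8% of all autosomal Tal1 sites did and 19.7% of near sites did. With 1 tag counted per position, 277 far sites held 5 or more, so part of this class rests on duplicate tags. The lists of the other 2 proteins, cut by the same distance rule, had lower shares, with 16.8% of the 1314 Ldb1 sites far from Tal1 and Gata1 and 22.5% of the 2096 Gata1 sites far from Ldb1 and Tal1. The far Tal1 sites are therefore described apart by their IgG tags. That split itself sets the fold over IgG high in one class and low in the other, so the fold over the flanks is given beside it.

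The 812 far sites with under 5 IgG tags had IgG close to its flanks, as their choice implies, and Ldb1 and Gata1 were raised there over both IgG and their own flanks. IgG averaged 0.258 RPM, 1.12-fold its flanks (1.06 to 1.18). Ldb1 averaged 1.36 RPM, 5.26-fold IgG (4.98 to 5.56) and 3.59-fold its flanks (3.495 to 3.69). Gata1 averaged 1.30 RPM (1.27 to 1.32), 5.01-fold IgG (4.75 to 5.30) and 3.497-fold its flanks (3.41 to 3.58). Tal1 averaged 3.63 RPM, 14.1-fold IgG and 8.98-fold its flanks. Both partner proteins thus stood well below Tal1, and which of the 2 was higher varied from site to site, with Gata1 above Ldb1 in RPM at 372 of the 812 (45.8%).

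The 403 far sites with 5 or more IgG tags had mean levels above the flanks in all 4 libraries. IgG averaged 1.03 RPM, 3.08-fold its flanks (2.96 to 3.21). Ldb1 averaged 1.82 RPM and Gata1 2.21 RPM, which was 1.76-fold and 2.14-fold IgG but 3.25-fold and 5.20-fold their own flanks. The fold of Gata1 over its flanks was higher here than at the sites with under 5 IgG tags. The fold of Ldb1 was a little lower with all 403 sites. Without 8 sites within 500 kb of their chromosome's first tag, the Ldb1 fold was higher instead, at 4.40 (4.25 to 4.56) against 3.59. Gata1 exceeded Ldb1 at 273 of these 403 sites (67.7%). Across all 1215 far sites the tags of Gata1 followed those of IgG more closely than those of Ldb1 did, with a Spearman rho of 0.476 for Gata1 and 0.151 for Ldb1. These coefficients describe sites that share their libraries. Among the 812 sites with under 5 IgG tags they were 0.270 and 0.034, over a narrow span of 0 to 4 IgG tags. Among the 403 sites with 5 or more they were alike, at 0.243 for Gata1 and 0.242 for Ldb1, and Pearson's r of log2 tags was 0.258 and 0.370.

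**Figure D1:**
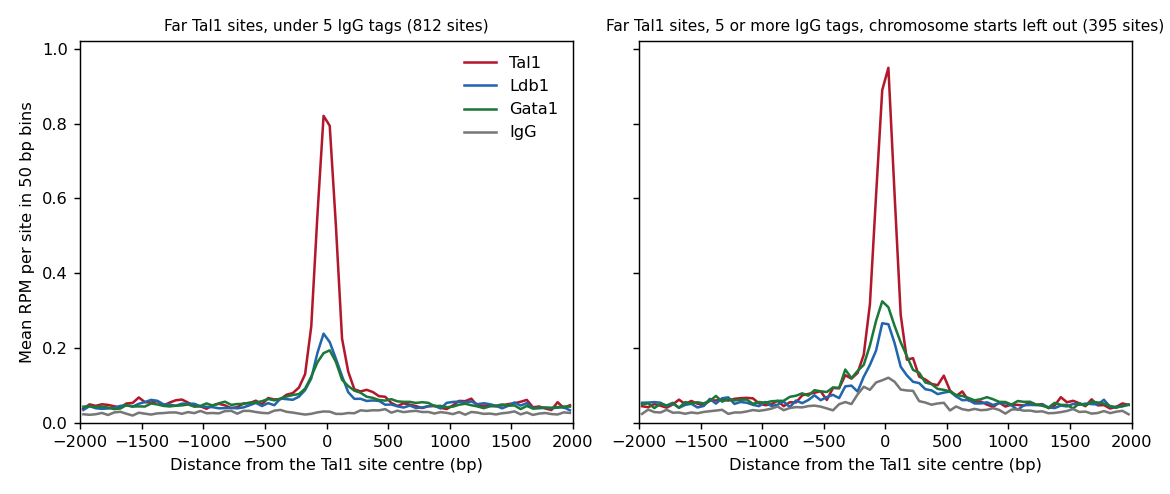
Mean tag level per site (RPM in bins of 50 bp, vertical axis) against distance from the Tal1 site centre in bp (horizontal axis), for 812 far sites with under 5 IgG tags (left) and 395 with 5 or more that lie beyond 500 kb of the chromosome start (right). On the left Ldb1 and Gata1 rise at the Tal1 centre, and IgG, held under 5 tags within 250 bp, has no peak there. On the right all 4 libraries rise there, where sites were chosen for IgG tags within 250 bp.

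The profile of the mean levels shows Ldb1 and Gata1 tags centred on the Tal1 site, except where the sites near chromosome starts weigh on the mean. At the sites with under 5 IgG tags, Ldb1 was highest in the bin of 50 bp next to the Tal1 centre and stood above 50% of its height from 100 bp on one side to 100 bp on the other. Gata1 did so from 150 bp on the left to 100 bp on the right. The 2 central bins held 4.87-fold the outer ones for Ldb1, 4.32-fold for Gata1, 16.2-fold for Tal1 and 1.19-fold for IgG. At the sites with 5 or more IgG tags beyond 500 kb of the chromosome start, the ratios were 5.38 for Ldb1, 6.14 for Gata1, 17.6 for Tal1 and 3.97 for IgG. With the 8 sites near chromosome starts kept in, Ldb1 was highest in the bin at -1475 bp from the centre (0.362 RPM, against 0.283 RPM in the central bins) and IgG in the bin at 725 bp (0.235 against 0.120 RPM). Without them the IgG rise was the widest of the 4 libraries, standing above 50% of its height for 250 bp on each side. The classes were set by IgG tags within this same 250 bp. The shape and central ratio of IgG in both classes therefore follow in part from the choice of sites.

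Tags around a bound protein lie on the strand that points towards it, because each is read from an end of a sheared fragment. The share of tags within 250 bp with this layout, forward on the left of the centre or reverse on the right, lies near 50% where tags have no such order. At far sites with under 5 IgG tags it was 67.9% for Ldb1 (66.8 to 69.0), 62.5% for Gata1 (61.5 to 63.6), 82.7% for Tal1 (82.2 to 83.3) and 54.2% for IgG (51.7 to 56.7). At 1 to 2 kb from the same centres it was 50.1% for Ldb1, 50.3% for Gata1, 49.6% for Tal1 and 51.6% for IgG. Ldb1 and Gata1 tags were therefore ordered around the Tal1 centre, less than Tal1 tags and more than IgG tags. The Tal1 share follows from the call, which required directional Tal1 tags on each side. Counting 1 tag per position gave 66.6% for Ldb1 and 62.5% for Gata1. At near sites the shares were 74.8% for Ldb1 and 70.1% for Gata1. Far sites were chosen for lacking such a partner call, so their lower partner shares follow from the choice.

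**Figure D2:**
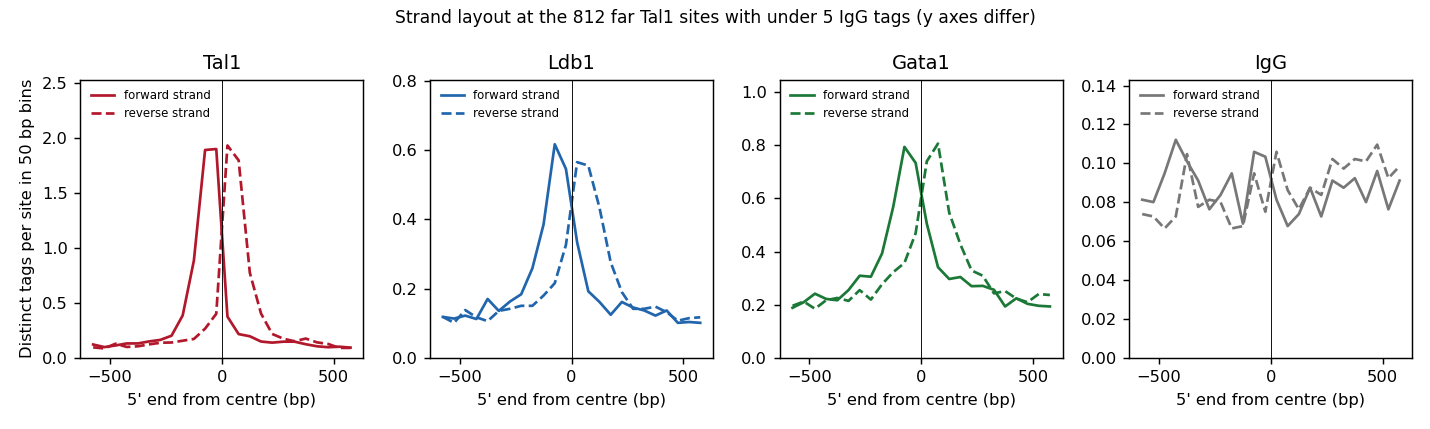
Distinct tags per site by the position of their 5′ end (bins of 50 bp, horizontal axis in bp from the Tal1 centre), forward strand solid and reverse strand dashed, at the 812 far sites with under 5 IgG tags. Forward tags peak left and reverse tags right of the centre for Tal1, Ldb1 and Gata1, while IgG shows no such pair of peaks; the vertical axes differ.

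The number of partner tags was below the caller's minimum at most far sites. Distinct tags were counted as the caller counts them, on the strand that points to the centre and within 1 fragment length, which gave the authors' tag number to within 1 tag at 89.0% of Tal1, 87.0% of Ldb1 and 77.4% of Gata1 sites. At the far Tal1 centres this count had a median of 4 for Ldb1 (quartiles 2 and 6, highest 27), where the minimum is 9. For Gata1 the median was 6 (quartiles 4 and 9, highest 45), where the minimum is 11. At positions 3.5 kb to either side of the same centres the medians were 0 and 1. The far sites thus lay between the surroundings and the threshold, and few of them were empty: 4.03% had no such Ldb1 tag, where 58.5% of the outer positions had none. For Gata1 the shares were 3.05% and 41.9%.

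Some far sites reached the minimum and yet had no site in the partner's list. For Ldb1 these were 56 of 1215 (4.61%, 3.5 to 5.94), of which 43 held 5 or more IgG tags. For Gata1 they were 174 (14.3%, 12.4 to 16.4), of which 128 held 5 or more IgG tags. Among the 812 sites with under 5 IgG tags, 13 reached the Ldb1 minimum and 46 the Gata1 minimum. The caller also compares each site with the IgG library, and the part of that step in their absence from the lists was not tested.

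**Figure D3:**
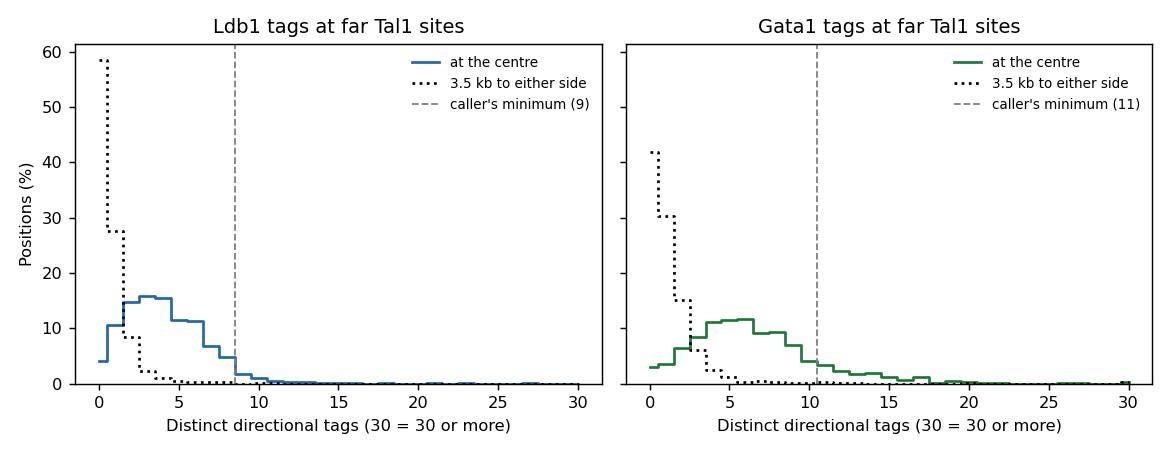
Share of positions (percent, vertical axis) by the number of distinct directional tags (horizontal axis) of Ldb1 (left) and Gata1 (right), at the centres of the 1215 far Tal1 sites (solid) and 3.5 kb to either side (dotted). The dashed line marks the caller's minimum of 9 tags for Ldb1 and 11 for Gata1; most centres lie left of it and right of the dotted curve's peak at 0.

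Site by site, a partner was called present here when its window held at least 5 tags and at least 3 times the IgG level, with IgG counted as at least 1 tag. By this rule Ldb1 was present at 583 far sites (48.0%, 45.1 to 50.8), where 81.7% of all autosomal Tal1 sites passed. Gata1 was present at 652 (53.7%, 50.8 to 56.5), where 82.4% of all passed. Both were present at 416 (34.2%) against 73.6% of all, and neither at 396 (32.6%) against 9.48% of all. Ldb1 without Gata1 was seen at 167 (13.7%; 8.13% of all) and Gata1 without Ldb1 at 236 (19.4%; 8.77% of all). Tal1 itself passed at 1145 far sites (94.2%; 97.9% of all). Since the far rule removed sites with a partner call from the same tags, lower shares follow from the choice of sites.

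By the rule over IgG, the share with neither partner was not even between the IgG classes. Of the 812 far sites with under 5 IgG tags, Ldb1 passed at 531 (65.4%), Gata1 at 553 (68.1%), both at 399 (49.1%) and neither at 127 (15.6%, 13.2 to 18.3). Of the 403 with 5 or more IgG tags, Ldb1 passed at 52, Gata1 at 99, both at 17 and neither at 269 (66.8%). A site with 5 or more IgG tags needs more partner tags to pass, so this difference follows from the rule. Against the flanks in place of IgG, with at least 5 tags and 3 times the flank density, Ldb1 passed at 802 far sites (66.0%; 86.8% of all) and Gata1 at 838 (69.0%; 86.8% of all). By this rule the classes ran level or the other way, with Ldb1 at 65.5% of the sites with under 5 IgG tags and 67.0% of those with 5 or more, and Gata1 at 62.1% and 82.9%. Tal1 passed at 1161 (95.6%; 97.0% of all). IgG passed at 313 (25.8%; 16.4% of all), all with 5 or more IgG tags, as the rule requires.

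At like caller tag numbers, far sites held fewer partner tags than near sites. This follows from choosing far sites by the absence of partner calls on the same tags. Among sites with 8 caller tags, the mean Ldb1 level was 1.20 RPM (1.16 to 1.24) at 439 far sites. At 465 near sites it was 4.14 RPM (4.06 to 4.21), where 1 site held 1774 of the 12249 tags. The median Ldb1 counts were 7 tags at far and 18 at near sites. The Gata1 levels were 1.37 RPM (1.33 to 1.41) and 2.72 RPM (2.67 to 2.78). In this class Ldb1 passed the rule over IgG at 41.2% of far and 78.9% of near sites, and Gata1 at 49.9% and 81.5%. The classes were not of equal Tal1 level, since Tal1 averaged 2.95 RPM at the far and 4.53 RPM at the near sites with 8 caller tags. Near sites of this class more often had another Tal1 site within 1000 bp, at 32.04% against 3.65%, and the part of that in the levels was not tested.

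Within the far sites, partner levels were higher in the classes with more caller tags, except for Gata1 between 11 to 14 and 15 to 19 tags, where the intervals overlapped. Ldb1 averaged 1.20 RPM in the class of 8 tags, 1.44 at 9 to 10, 1.77 at 11 to 14, 2.04 at 15 to 19 and 2.96 at 20 or more. Gata1 averaged 1.37, 1.49, 1.92, 1.88 and 2.54 RPM in the same classes. Mean IgG also rose, from 0.449 RPM in the lowest class to 1.05 RPM in the highest, while at near sites it went from 0.396 to 0.363 RPM. The median IgG count at far sites was 3 tags in every class but the highest, where it was 6. Single sites held 93 of the 1220 IgG tags at 11 to 14, 49 of 328 at 15 to 19 and 44 of 305 at 20 or more. With these means, the fold of Ldb1 over IgG lay between 2.68 and 3.28 in all 5 classes. That of Gata1 lay between 2.42 and 3.27. Among far sites with under 5 IgG tags the Ldb1 fold over IgG was 4.32 (3.95 to 4.73) in the lowest class and 6.66 (5.38 to 8.31) at 15 to 19 tags. The highest class there held 14 sites, with 5.80 (3.92 to 8.83).

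**Figure D4:**
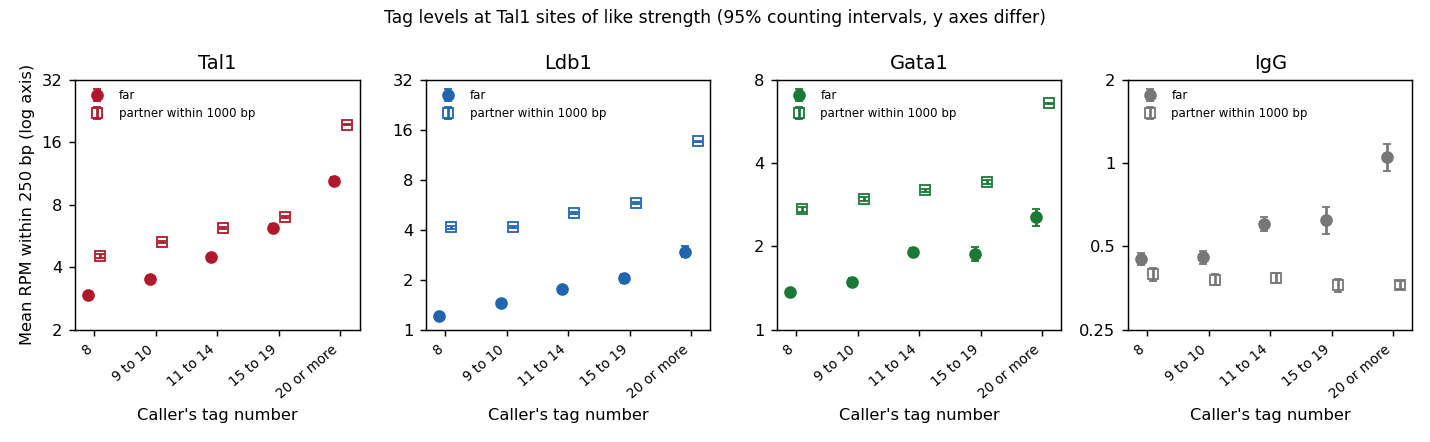
Mean level within 250 bp (RPM, log axis) of each library by the caller's tag number of the Tal1 site, for far sites (filled) and near sites (open), with 95% counting intervals. Ldb1 and Gata1 are lower at far sites in every class, as the choice of sites implies. Mean IgG climbs from 0.449 to 1.05 RPM at far sites, where its median is 3 tags in every class but the highest.

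Sites with 5 or more IgG tags made up a larger share of the strongest class of far sites than of the weaker classes. Of the 39 far sites with 20 or more caller tags, 25 (64.1%) held 5 or more IgG tags, where 289 of 1630 near sites of that class (17.7%) did, and the share was between 28.2% and 40.4% in the 4 weaker classes of far sites. These 39 sites averaged 10.4 RPM of Tal1, 2.96 of Ldb1, 2.54 of Gata1 and 1.05 of IgG. The strongest far site of all, at chr17:56717291-56717331, had 56 caller tags, and its window held 133 Tal1, 37 Gata1, 12 Ldb1 and 5 IgG tags. Another Tal1 site lay 0.48 kb away from it, and the nearest Ldb1 and Gata1 sites were 12.3 kb away.

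The 5 far sites with the most caller tags among those with under 5 IgG tags were followed singly, and Ldb1 and Gata1 were present to different degrees among them. The site at chr2:33675851-33675891 had 31 caller tags, with 68 Tal1, 13 Ldb1, 14 Gata1 and 1 IgG tags. Its Ldb1 level was 15.2-fold that of IgG, with an interval from 2.28 to 645. At chr17:65456911-65456951 there were 60 Tal1, 14 Ldb1, 9 Gata1 and 4 IgG tags, and the Gata1 level, 2.13-fold IgG, had an interval from 0.593 to 9.45. A Gata1 excess over IgG at that site was thus not detectable at this depth. Against the flanks, Gata1 stood at 1.14 RPM in the window and 0.286 RPM outside, given without an interval. The site at chr12:55902931-55902971 had the most Gata1 of the 5, with 48 Tal1, 25 Gata1, 11 Ldb1 and 2 IgG tags, and an Ldb1 site lay 4.02 kb from it. At chr17:33423691-33423731 there were 55 Tal1, 17 Gata1, 6 Ldb1 and 0 IgG tags. Set against the 3 IgG tags that a count of 0 allows, Gata1 was 5.35-fold and Ldb1 2.34-fold. These 2 ratios carry no interval and leave out the counting error of the Gata1 and Ldb1 tags. The site at chr6:52829331-52829371 was the most remote of the 5, with 69 Tal1, 12 Gata1, 6 Ldb1 and 4 IgG tags and the nearest partner site 1081 kb away. Its Ldb1 level was 1.75-fold IgG (0.415 to 8.44) and its Gata1 level 2.83-fold (0.859 to 12.1), neither of which was detectable as an excess over IgG at this depth.

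The 100 strongest far sites with under 5 IgG tags had 13 to 31 caller tags. Ldb1 was present by the rule over IgG at 85 of them, Gata1 at 73, both at 67 and neither at 9. Over all autosomal Tal1 sites the shares were 81.7%, 82.4%, 73.6% and 9.48%. At near sites with under 5 IgG tags they were 96.3%, 95.5%, 92.1% and 0.334%. Ldb1 ranged from 0.157 to 4.24 RPM with a median of 1.73, and Gata1 from 0 to 5.33 RPM with a median of 1.33. Most of the 100 sites thus passed for both partners, and a minority passed for 1 or for neither. The share with both was smaller than in either comparison group, and a lower share follows from choosing far sites by absent partner calls. All autosomal Tal1 sites also include sites with 5 or more IgG tags, which need more partner tags to pass, so that group is not a like set.

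The 3 sites at the low end of those 100 held from 6 to 8 partner tags in all. The site at chr5:115753011-115753051 had 26 Tal1, 6 Ldb1, 0 Gata1 and 1 IgG tags, with a Gata1 site 1.88 kb away. At chr10:80161031-80161071 there were 26 Tal1, 3 Ldb1, 4 Gata1 and 2 IgG tags. The site at chr6:121034911-121034951 had 30 Tal1, 4 Ldb1, 4 Gata1 and 0 IgG tags. Tal1 there was 12.9-fold the floor of 3 IgG tags, a ratio without an interval. These 3 were chosen for their low partner tags, and their counts are a description. At the high end, chr14:49852971-49853151 had 36 Tal1, 42 Gata1, 21 Ldb1 and 4 IgG tags, so that Gata1, at 5.33 RPM, came close to Tal1 at 6.24 RPM. The site at chr5:139450711-139450771 had 43 Tal1, 23 Ldb1, 16 Gata1 and 4 IgG tags. At chr6:86475631-86475671 there were 28 Tal1, 27 Ldb1, 10 Gata1 and 1 IgG tags, with levels of 4.86 RPM for Tal1 and 4.24 RPM for Ldb1.

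The 3 far sites with the most IgG tags differed in their surroundings. The site at chr5:3002551-3002591 held 186 Ldb1, 120 Tal1, 93 IgG and 35 Gata1 tags, and its flanks were also rich. Ldb1 stood at 29.2 RPM in its window and 15.7 RPM in its flanks, Tal1 at 20.8 and 9.32 RPM, and IgG at 12.5 and 5.60 RPM. The site at chr11:3079451-3080291 had 52 Tal1, 49 IgG, 41 Gata1 and 24 Ldb1 tags, and IgG stood at 6.59 RPM in its window and 6.32 RPM in its flanks. Both lie within 500 kb of the first tag of their chromosome. The site at chr6:29698711-29699071 had 127 Tal1, 59 Ldb1, 50 Gata1 and 44 IgG tags over flanks of 0.190 to 0.380 RPM, a local peak shared by all 4 libraries.

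In all 10 far sites on 6 chromosomes lay within 500 kb of the first tag, and 8 of them held 5 or more IgG tags. Ldb1 averaged 6.88 RPM in their windows and 7.53 RPM in their flanks, a fold of 0.914, and IgG averaged 3.11 and 3.94 RPM. Summed over the 10 sites, Ldb1 and IgG were thus not above their surroundings, and Tal1 was 1.75-fold its flanks. Single sites differed: by the rule over the flanks Ldb1 passed at 1 of the 10, IgG at 1, Gata1 at 3 and Tal1 at 4. Without them, the fold of Ldb1 over its flanks at all far sites was 3.86 in place of 3.44. At the 395 remaining sites with 5 or more IgG tags, IgG was 4.01-fold its flanks, Ldb1 4.40-fold, Gata1 5.79-fold and Tal1 11.1-fold.

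Tags at the sites with 5 or more IgG tags matched the genome less exactly. The share of IgG tags with no mismatch was 79.0% (77.6 to 80.5) there, 88.7% at far sites with under 5 IgG tags and 88.9% over all autosomes. Without the 8 sites of this class near chromosome starts, the IgG share at sites with 5 or more IgG tags was 82.7% (81.2 to 84.0). With all sites of the class, Ldb1 gave 50.4%, against 56.8% over all autosomes, Tal1 76.5% against 80.7% and Gata1 90.2% against 92.4%. Without those 8 sites Ldb1 gave 52.4%, Tal1 78.3% and Gata1 91.0%. At the far sites with under 5 IgG tags each library was within 2 percentage points of its autosomal share. Tags were 36 bases long for IgG and 25 for the other 3 libraries, and the part of tag length or of repeated sequence in these values was not tested.

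Distance to the nearest partner site ranged from 1.01 to 2715 kb, with a median of 24.4 kb. It was within 20 kb for 563 far sites (46.3%) and beyond 100 kb for 229 (18.8%). The median distance was 40.1 kb to an Ldb1 site and 36.8 kb to a Gata1 site. The sites of the other 2 lists chosen by the same rule lay somewhat farther from a partner, at medians of 38.8 kb for Ldb1 and 36.8 kb for Gata1. Just inside the limit, 15 Tal1 sites had their nearest partner between 900 and 1000 bp, and just outside it 11 had theirs between 1000 and 1100 bp. The closest members lay at 1010 bp (23 caller tags) and 1020 bp (8 caller tags), and the closest sites left out at 1000 bp (8 caller tags) and 990 bp (15 caller tags).

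Partner levels at the far sites did not vanish with distance. Ldb1 averaged 2.16 RPM (2.05 to 2.27) at the 110 sites with a partner site 1 to 2 kb away, 1.61 at 2 to 5 kb, 1.44 at 5 to 20 kb, 1.43 at 20 to 100 kb and 1.39 (1.33 to 1.45) at the 229 beyond 100 kb. Gata1 averaged 1.81, 1.69, 1.54, 1.64 and 1.45 RPM in the same classes. Of the 1513 Ldb1 tags in the nearest class, 186 came from chr5:3002551-3002591 and 93 from chr9:3004511-3004551. Both sites lie within 500 kb of the first tag of their chromosome. The median Ldb1 counts were 11, 10, 9, 8 and 7 tags. In the class of 2 to 5 kb the flanks contain the partner site itself, and in the class of 1 to 2 kb they lie just beyond it, so the fold over the flanks is given for a more distant class. Beyond 100 kb, Ldb1 was 5.40-fold (5.12 to 5.69) and Gata1 5.48-fold (5.23 to 5.74) its flanks, and IgG 2.12-fold. The rule over IgG was passed by Ldb1 at 102 (44.5%) and by Gata1 at 122 (53.3%) of those 229 sites.

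**Figure D5:**
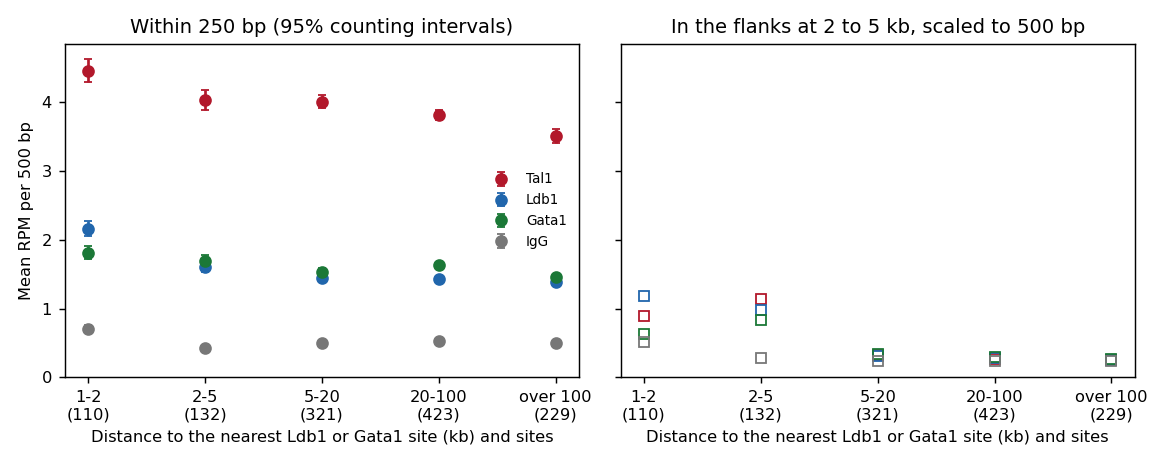
Mean level per 500 bp (RPM, vertical axis) of each library within 250 bp of the far Tal1 sites (left, 95% counting intervals) and in their flanks (right), by the distance in kb to the nearest Ldb1 or Gata1 site, with the number of sites in brackets. Ldb1 falls from 2.16 to 1.39 RPM and Gata1 from 1.81 to 1.45 RPM on the left, and where the partner is over 5 kb away the flanks of all 4 libraries lie between 0.233 and 0.335 RPM.

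Most far sites had no other far site within 20 kb, and the number expected from even placement was not computed. No other far site lay within 20 kb for 998 of them (82.1%), 85 pairs and 15 longer runs made up the rest, and the longest runs held 4 sites, once each on chromosomes 10 and 11. Another Tal1 site of either kind lay within 1000 bp for 76 far sites (6.26%) and within 20 kb for 498 (41.0%). The windows of 41 far sites overlapped, so some tags were counted at more than 1 site. The share of Tal1 sites that were far ran from 19.05% on chromosome 10 (14.7 to 24.0) to 27.6% on chromosome 19 (21.6 to 34.4), with overlapping intervals. The share of far sites with 5 or more IgG tags ran from 23.7% on chromosome 5 to 49.2% on chromosome 17.

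The same rule applied to the other lists gave sites with a like remainder of the missing proteins. At the 1314 Ldb1 sites far from Tal1 and Gata1, Tal1 was 4.23-fold (4.14 to 4.32) and Gata1 3.69-fold (3.62 to 3.77) its flanks. At the 2096 Gata1 sites far from Ldb1 and Tal1, Ldb1 was 3.46-fold (3.4 to 3.52) and Tal1 3.68-fold (3.61 to 3.74). The far Tal1 sites, with 3.44-fold for Ldb1 and 4.12-fold for Gata1, lay close to these values, and the ratios were not tested against each other. IgG was also above its flanks there, 1.78-fold at the far Ldb1 and 1.68-fold at the far Gata1 sites, beside 1.94-fold at the far Tal1 sites. The folds at the far Ldb1 sites lean on extremes. A single site there held 793 of the 4103 IgG tags, and the highest counts were 530 for Tal1 and 377 for Gata1. Folds without such sites were not computed.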

How the data were processed

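ChIP-seq libraries for Ldb1, Tal1, Gata1 and IgG, 1 each, came as aligned tags and, for the first 3, as lists of sites. Positions are on mm8 per the submitters' processing notes, and the aligner is not given in the sources used here. Per the file headers, sites were called with SISSRs 1.4 against the IgG library, with 1 tag kept per position, a p setting of 0.001 and a minimum of 2 directional tags per side. The deposited lists give the caller's count of tags, a fold over background (a ratio) and a p-value, used here only to describe and rank sites within a list. The score column of the deposited tag files was not used.

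Levels, folds and shares were computed from the tags as deposited, duplicates included, in Python 3.11.15 (scipy 1.17.1, pandas 2.3.3, numpy 2.4.6; figures in matplotlib 3.10.9). Tags carried no molecular identifiers, so amplified copies count again and intervals cover counting error only. Ratios of 2 counts carry exact conditional 95% intervals and shares exact Clopper-Pearson ones, and the code was tested on simulated tags. There was no test between groups, since 1 library per antibody also chose the sites. The sites, classes and lists were chosen with earlier results of these data known. The named sites are the 5 with most caller tags among those with under 5 IgG tags, the 3 lowest and 3 highest by Ldb1 plus Gata1 RPM among the top 100 of these, the 3 with most IgG tags and the 2 closest to the limit of 1000 bp; the strongest site of all was added after its values were seen. An mm8 genome with its genes was not used here, so no sequence, motif or gene name is given.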

Additional observations from a re-analysis of the deposited data

How the results depend on the processing

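Of 95 alternative values for 21 results, 30 stayed within 1.5 times (counts) or within the interval (other values), 65 moved and 0 reversed. No paired analysis was possible because there is 1 library for each antibody; none could be left out. The sequence analysis was not run. The number of far sites went from 1215 to 1613, 1326, 1105 and 973 with limits of 200, 500, 2000 and 5000 bp, to 490 when all 3 lists were cut at their median and to 188 when only the Tal1 list was. For Ldb1 the fold over IgG was 3.81 with a window of 100 bp, 2.38 with 500 bp, 2.80 with 1 tag per position, 2.81 with a limit of 5000 bp and 5.26 with under 5 IgG tags. For Tal1 these were 12.4, 5.06, 7.14 and 14.1, leaving out the limit, with 8.63 at or above the median caller tags. For Gata1 they were 3.74 (100 bp), 2.54 (500 bp), 5.01 (under 5 IgG tags) and 2.71 (at or above the median). Leaving out the 10 sites near chromosome starts, chosen after seeing the data, gave 7.82 for Tal1 and 3.23 for Gata1.

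The fold over the flanks for Ldb1 was 4.34 with flanks of 5 to 10 kb, 4.97 and 2.57 with windows of 100 and 500 bp, 3.79 with 1 tag per position, 3.59 with under 5 IgG tags, 5.06 with a limit of 5000 bp and 3.86 without the chromosome starts. For Tal1 it was 10.9, 16.3, 5.53, 9.27, 13.3 (limit) and 9.66 (starts). For Gata1 it was 4.87, 5.52, 3.10, 3.497 (under 5 IgG tags), 5.18 (limit) and 4.26 (starts). For IgG it was 2.15, 2.15, 1.78, 2.09, 1.12, 2.14 and 2.10. The share of far sites with Ldb1 was 62.8% at a fold of 2, 33.6% at a fold of 5, 42.6% with 1 tag per position and 66.0% over the flanks. For Gata1 it was 72.6%, 30.4%, 50.6% and 69.0%. Among sites with under 5 IgG tags the fold over IgG by class of caller tags was 4.32, 5.69, 5.94, 6.66 and 5.80 for Ldb1 and 4.42, 5.24, 5.75, 5.09 and 5.82 for Gata1, and with 1 tag per position Ldb1 in the class of 9 to 10 was 2.95. With 3 or more and with 10 or more IgG tags as the limit, 697 and 52 far sites stood apart, and with 5 or more at 1 tag per position 277 did. Depth limits single sites most: with 1 IgG tag in the window, the fold of Ldb1 over IgG at chr2:33675851-33675891 had an interval from 2.28 to 645.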

Other observations

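On the X chromosome, which the rule for the far sites leaves out, 28 of 76 Tal1 sites (36.8%, 26.1 to 48.7) had no Ldb1 or Gata1 site within 1000 bp.

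The 2 longest runs of far sites were short. The run on chromosome 10 held 4 sites in 5.33 kb with 64 Tal1, 59 Gata1, 30 Ldb1 and 27 IgG tags, and the run on chromosome 11 held 4 sites in 5.46 kb with 129 Tal1, 77 Ldb1, 70 Gata1 and 35 IgG tags. In these runs 2 and 3 of the 4 sites held 5 or more IgG tags.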
